A study of Homo sapiens with 6 samples.

Results

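The 37 listed genes of the HOXA, HOXB, HOXC and HOXD clusters were examined, out of 20037 protein-coding genes in the RefSeq table. HOXA contributed 10 genes and the other clusters 9 each. A ChIP-seq peak, a stretch of the genome with more sequenced fragments than its surroundings, was assigned to a cluster when its summit lay within the GRCh38 span of a listed gene extended by 10 kb on each side. Each peak was counted once per cluster. The rule took 32 of 44308 BRG1 peaks in MR49F and 34 of 36174 in LNCaP. It took 23 of 47615 SMARCC2 peaks in MR49F and 20 of 25706 in LNCaP.

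MR49F and LNCaP are human prostate cancer cell lines. MR49F is a derivative of LNCaP that resists enzalutamide, an antagonist of the androgen receptor, and was kept in 10 µM of the drug. LNCaP is the sensitive line, and no drug is named in its medium, so line and drug exposure cannot be told apart. BRG1 is the motor subunit of the SWI/SNF nucleosome remodelling complex, and SMARCC2 is a scaffold subunit of the same complex. Both lines were fixed with 2 mM DSG, a protein crosslinker, for 45 min and with 1% formaldehyde for 10 min, and each precipitation used 4 µg of antibody. Each line had 1 library per antibody, so values stand without a replicate check and without p-values. The 2 input libraries were not analysed here. All 5 prostate luminal genes listed to check the lines had a peak in every list, as did 45.6% of all protein-coding genes. Together they held 30 BRG1 peaks in MR49F against 37 in LNCaP, and 37 SMARCC2 peaks in MR49F against 29 in LNCaP. Among them was KLK3, which encodes prostate-specific antigen, with 4 BRG1 peaks in MR49F against 4 in LNCaP, and 5 SMARCC2 peaks in MR49F against 2 in LNCaP. FOLH1, STEAP2 and TMPRSS2 had fewer BRG1 peaks in MR49F than in LNCaP, and STEAP2 also had fewer SMARCC2 peaks. KLK2 had more peaks in MR49F with both antibodies.

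HOX genes encode homeodomain transcription factors that tell cells where they are along the body axis. They lie in clusters whose gene order follows the order of their expression domains, with low-numbered genes acting towards the head and high-numbered genes towards the tail. The most posterior genes also pattern the ends of the limbs and the urogenital tract, from which the prostate arises. Polycomb complexes keep HOX genes silent where they are not used, and SWI/SNF belongs to the Trithorax group that opposes them.

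Promoter windows that the results below refer back to are printed first, as RefSeq gives them on GRCh38.p14: a start with peaks in every list, and starts of posterior genes that some lists reached. Each runs 5′ to 3′ on the strand of its gene, from 250 bases before a transcription start to 50 bases after it. Capitals mark matches, on either strand, to TGATNNAT (a HOX site with its partner PBX), TATAAA (the TATA box), TGTTTAC (FOXA factors), TGANTCA (AP-1) and AGGGGGC (a stretch of the CTCF site). A match on the opposite strand appears as its reverse complement, and TATAAA on both strands of the HOXD13 window overlap. The HOXC4 and HOXC5 window, chr12:54016638-54016937 on the plus strand, overlapped a peak in all 4 lists. The HOXD13 window, chr2:176092471-176092770 on the plus strand, overlapped a peak in both MR49F lists and in neither LNCaP list. The HOXD11 window, chr2:176107030-176107329 on the plus strand, overlapped a MR49F BRG1 peak. The HOXA10 window, chr7:27179812-27180111 on the minus strand, overlapped a BRG1 peak in each line. The HOXA9 window, chr7:27165488-27165787 on the minus strand, overlapped a LNCaP SMARCC2 peak. Not printed are the HOXA7 window, which overlapped a MR49F BRG1 peak alone, and the HOXD8 window, which overlapped a MR49F SMARCC2 peak alone.
HOXC4 and HOXC5: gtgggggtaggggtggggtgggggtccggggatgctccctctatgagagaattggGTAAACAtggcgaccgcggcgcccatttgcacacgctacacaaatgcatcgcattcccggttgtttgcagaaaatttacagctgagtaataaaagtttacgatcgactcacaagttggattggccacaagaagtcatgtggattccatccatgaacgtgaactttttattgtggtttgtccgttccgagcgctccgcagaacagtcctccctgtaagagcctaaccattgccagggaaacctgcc
HOXD13: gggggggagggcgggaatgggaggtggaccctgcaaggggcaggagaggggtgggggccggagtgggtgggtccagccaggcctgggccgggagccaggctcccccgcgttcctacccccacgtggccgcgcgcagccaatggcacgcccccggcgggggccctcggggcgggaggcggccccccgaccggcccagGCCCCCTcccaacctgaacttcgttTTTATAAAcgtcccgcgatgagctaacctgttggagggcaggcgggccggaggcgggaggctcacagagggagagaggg
HOXD11: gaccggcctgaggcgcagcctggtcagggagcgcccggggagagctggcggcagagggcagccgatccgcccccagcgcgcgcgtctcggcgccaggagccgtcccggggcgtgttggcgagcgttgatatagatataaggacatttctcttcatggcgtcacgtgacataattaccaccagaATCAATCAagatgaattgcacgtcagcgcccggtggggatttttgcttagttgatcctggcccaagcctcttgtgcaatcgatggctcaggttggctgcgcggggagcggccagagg
HOXA10: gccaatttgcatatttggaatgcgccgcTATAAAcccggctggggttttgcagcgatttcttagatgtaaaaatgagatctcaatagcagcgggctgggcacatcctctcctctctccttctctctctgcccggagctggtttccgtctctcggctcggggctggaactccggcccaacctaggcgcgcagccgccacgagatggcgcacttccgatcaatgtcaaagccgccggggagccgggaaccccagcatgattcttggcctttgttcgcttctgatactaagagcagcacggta
HOXA9: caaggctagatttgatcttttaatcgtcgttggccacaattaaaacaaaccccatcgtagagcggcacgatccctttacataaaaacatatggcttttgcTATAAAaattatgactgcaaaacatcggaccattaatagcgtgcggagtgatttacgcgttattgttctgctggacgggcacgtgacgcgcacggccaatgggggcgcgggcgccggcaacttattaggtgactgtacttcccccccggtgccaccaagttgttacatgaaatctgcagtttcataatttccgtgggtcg

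The promoter table held 26 windows for 20 of the 37 genes. Several were alternative HOXA3 starts, and no HOXA3 window overlapped a peak. HOXB1 was the only HOXB gene held, and HOXC4 and HOXC5 were the only HOXC genes. Starts with peaks in every list, such as those of HOXC13 and HOXB7, were missing. Shares of HOX windows therefore describe the windows held, not all HOX starts. The FOXA sequence was found in 3.85% of these HOX windows and in 3.42% of all 34943 windows of the table. TATAAA was in 19.2% of HOX windows and 11.6% of all. The HOX and PBX sequence was in 11.5% of HOX windows and 7.42% of all, and the CTCF stretch in 15.4% of HOX windows and 14.3% of all. The AP-1 sequence was in 0 of 26 HOX windows and in 7.72% of all windows. Median GC content was 58.0% in HOX windows and 58.7% in all, while the median number of CpG dinucleotides per 300 bases was 22.5 in HOX windows and 14.0 in all. Peaks reached few of these windows: 5 of 26 overlapped a BRG1 peak in MR49F and 2 in LNCaP, and 3 overlapped a SMARCC2 peak in MR49F and 2 in LNCaP. For BRG1 this is 19.2% in MR49F against 7.69% in LNCaP, where all windows gave 28.8% in MR49F against 19.1% in LNCaP. For SMARCC2 it is 11.5% in MR49F against 7.69% in LNCaP, where all windows gave 24.5% in MR49F against 9.64% in LNCaP. Both BRG1 summits of the HOXC4 and HOXC5 start, at 54016686 in MR49F and 54016740 in LNCaP, lay inside the printed window, and in no other HOX window did a summit of any list lie.

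The clusters differed in which line held more peaks, and they did so in the same direction with both antibodies. At HOXA, BRG1 had 8 peaks in MR49F and 12 in LNCaP, and SMARCC2 had 4 in MR49F against 6 in LNCaP. At HOXB, BRG1 had 5 peaks in MR49F and 9 in LNCaP, and SMARCC2 had 4 in MR49F against 5 in LNCaP. LNCaP therefore held more peaks in these clusters. At HOXC, BRG1 had 14 peaks in MR49F and 12 in LNCaP, and SMARCC2 had 12 in MR49F against 9 in LNCaP. At HOXD, BRG1 had 5 peaks in MR49F and 1 in LNCaP, and SMARCC2 had 3 in MR49F against 0 in LNCaP. MR49F held more peaks in HOXC and HOXD, as the bar chart of peaks per cluster shows.

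**Figure D1:**
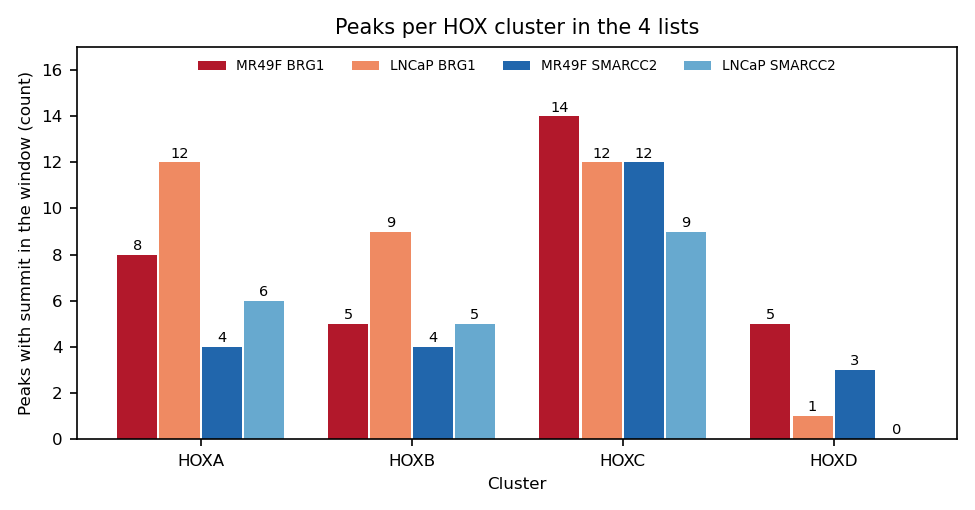
Bars give the number of peaks with a summit in each HOX cluster window, for MR49F BRG1, LNCaP BRG1, MR49F SMARCC2 and LNCaP SMARCC2, with 1 library per bar. LNCaP bars are the taller at HOXA and HOXB, MR49F bars at HOXC and HOXD, where the LNCaP SMARCC2 count is 0.

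Set as the MR49F share of the peaks of both lines, HOX clusters together gave 48.5% for BRG1 (Wilson 95% interval 36.8 to 60.3, which covers counting error only). All gene windows gave 54.6% and whole lists 55.1%. The SMARCC2 share was 53.5% (38.9 to 67.5), with 63.8% in all gene windows and 64.9% in whole lists. Both shares over all HOX clusters lay below those of the gene windows, and both intervals contain them. For BRG1, the share was 40.0% (21.9 to 61.3) at HOXA, 35.7% (16.3 to 61.2) at HOXB, 53.8% (35.5 to 71.2) at HOXC and 83.3% (43.6 to 97.0) at HOXD. For SMARCC2 it was 40.0% (16.8 to 68.7) at HOXA, 44.4% (18.9 to 73.3) at HOXB, 57.1% (36.5 to 75.5) at HOXC and 100% (43.9 to 100) at HOXD. With both antibodies the HOXA, HOXB and HOXC shares lay below those of all gene windows, and the HOXD shares above. MR49F thus had more peaks at HOXC by count, but not beside the share of all gene windows. With few peaks per cluster the intervals are wide, and those of all 4 clusters overlap. Differences between clusters were not tested, so their order is a description only and may reflect counting error. List length matters here, since both MR49F lists are the longer ones. With the MR49F list of each antibody cut to the length of the LNCaP list, a setting chosen after seeing the data, the HOXC share was 47.8% for BRG1 and 30.8% for SMARCC2, and the SMARCC2 share over all clusters was 33.3%. The SMARCC2 share at HOXB was 57.1% among peaks whose −log10 q-value was at least 5 and 60% when only summits inside gene spans counted.

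**Figure D2:**
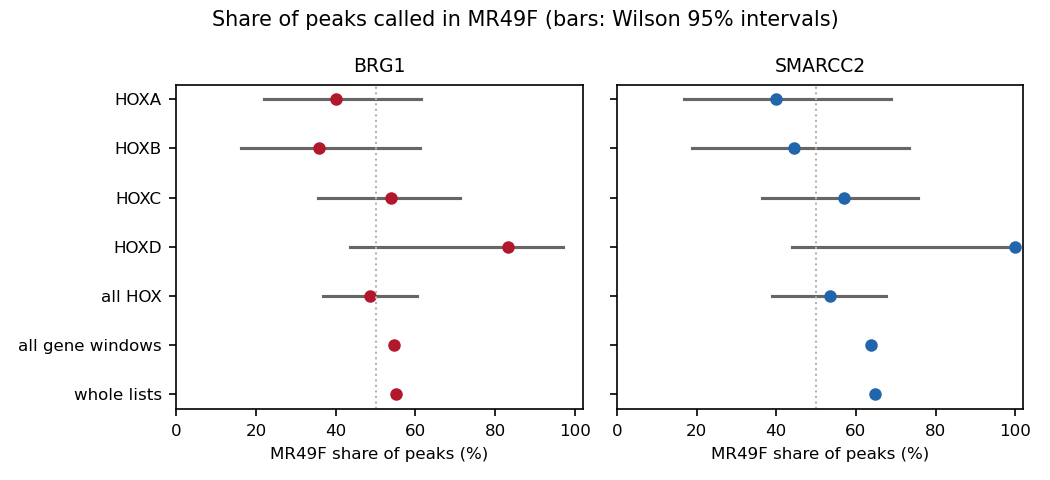
Points give the MR49F share of BRG1 peaks (left) and SMARCC2 peaks (right) in percent, and bars give Wilson 95% intervals, which cover counting error only. HOXA and HOXB lie left of the 50% line with both antibodies, HOXC and HOXD right of it, and every HOX interval is wide beside the points for all gene windows and whole lists.

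Local background is the fragment level around peaks as solved from the deposited fold and p-value. Around HOXC, relative to the autosomal median of its list, it was higher in MR49F than in LNCaP. In the 10 Mb centred on the cluster it was 1.15 times the autosomal median in MR49F BRG1 and 0.892 times in LNCaP BRG1, a ratio of 1.29. With SMARCC2 it was 1.22 in MR49F and 0.901 in LNCaP, a ratio of 1.36. The ratio of MR49F to LNCaP was 1.06 for BRG1 and 1.07 for SMARCC2 at HOXA. It was 0.948 for BRG1 and 1.09 for SMARCC2 at HOXB, and 0.99 for BRG1 and 0.932 for SMARCC2 at HOXD. Its part in the HOXC counts was not tested.

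HOX windows held more peaks per 100 kb than all gene windows. HOX genes are also packed more closely: 37 genes shared 498.2 kb of window, where 20037 genes shared 1487 Mb. The values are therefore densities by length and not by gene. They held 6.42 BRG1 peaks per 100 kb in MR49F and 6.82 in LNCaP, where all gene windows held 2.2 in MR49F against 1.83 in LNCaP. SMARCC2 peaks numbered 4.62 per 100 kb in MR49F and 4.01 in LNCaP, where all gene windows held 2.28 in MR49F against 1.3 in LNCaP. The density was not even across clusters. It reached 10.2 BRG1 peaks per 100 kb at HOXC in MR49F and 10.0 at HOXA in LNCaP, and HOXD had 4.05 in MR49F and 0.81 in LNCaP. Peaks covered 13.2% of the HOXC window in MR49F and 10.8% in LNCaP with BRG1, and 2.98% of the HOXD window in MR49F against 0.71% in LNCaP.

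These were peaks of middling strength. The −log10 q-value, the caller's significance after correction, places each peak within its own list. The median HOX peak stood at the 51.0 percentile of the MR49F BRG1 list and at 57.6 in LNCaP BRG1. It stood at 38.3 in MR49F SMARCC2 and at 48.5 in LNCaP SMARCC2. In every list, 0 HOX peaks were among the strongest 10%, and the highest stood at 88.6, in the LNCaP SMARCC2 list inside HOXA3. The weakest was a MR49F BRG1 peak before HOXD9, at the 0.42 percentile. At HOXD the median percentile was 18.5 in MR49F BRG1 and 9.73 in MR49F SMARCC2, and the 1 LNCaP BRG1 peak stood at 70.7.

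**Figure D3:**
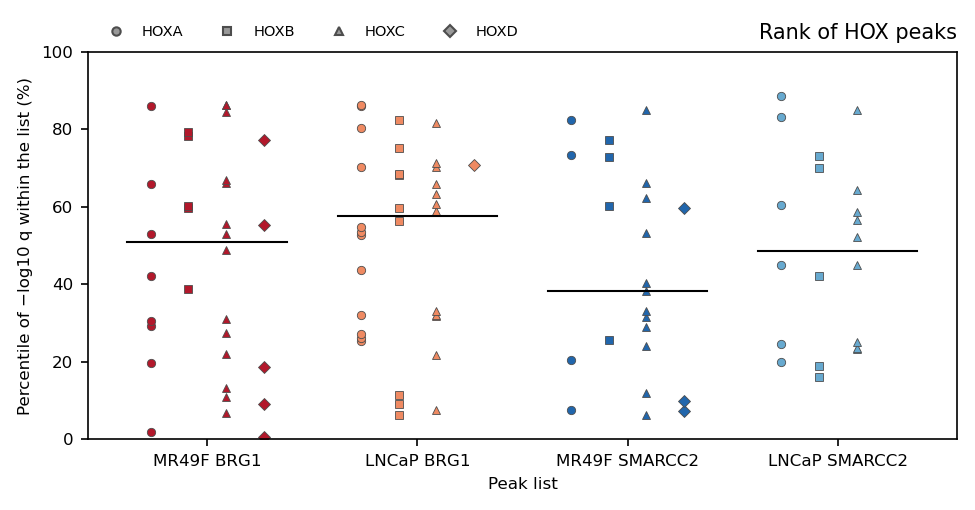
Each point is a HOX peak, placed by the percentile of its −log10 q-value within its own list; symbols give the cluster and horizontal lines the median of each list (51.0 in MR49F BRG1, 57.6 in LNCaP BRG1, 38.3 in MR49F SMARCC2 and 48.5 in LNCaP SMARCC2). No list has a HOX peak among its strongest 10%.

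Counted by gene, a BRG1 peak lay within 10 kb of 31 of the 37 HOX genes in MR49F and of 31 in LNCaP, where 73.3% of all protein-coding genes had one in MR49F and 63.9% in LNCaP. A SMARCC2 peak lay near 27 HOX genes in MR49F and 26 in LNCaP, where 71.6% of all genes had one in MR49F and 51.1% in LNCaP. A peak in every list was found at 21 HOX genes, where 45.6% of all genes had this. BRG1 peaks were more numerous in MR49F at 12 HOX genes, where 38.0% of all genes showed this, and in LNCaP at 18, where 17.5% did. SMARCC2 peaks were more numerous in MR49F at 17, where 51.1% of all genes showed this, and in LNCaP at 10, where 7.42% did. The median difference between MR49F and LNCaP was 0 peaks with both antibodies over the HOX genes, and over all genes it was 0 with BRG1 and 1 with SMARCC2. Neighbouring genes share peaks within their 10 kb margins, so counts by gene are not independent.

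With both antibodies, 9 HOX genes had more peaks in MR49F, where 30.1% of all genes did, and 8 had more in LNCaP, where 3.79% of all genes did. Of the 9, HOXD held 5 and HOXC 4. Of the 8, HOXA held 4, HOXB 3 and HOXC 1. The count grid by gene and list shows this turn from HOXA and HOXB to HOXC and HOXD. The counts depend on list length: with lists cut to equal length, 2 genes had more peaks in MR49F and 15 had more in LNCaP. They also depend on the margin: within gene spans alone, 4 genes had more in MR49F and 2 had more in LNCaP.

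**Figure D4:**
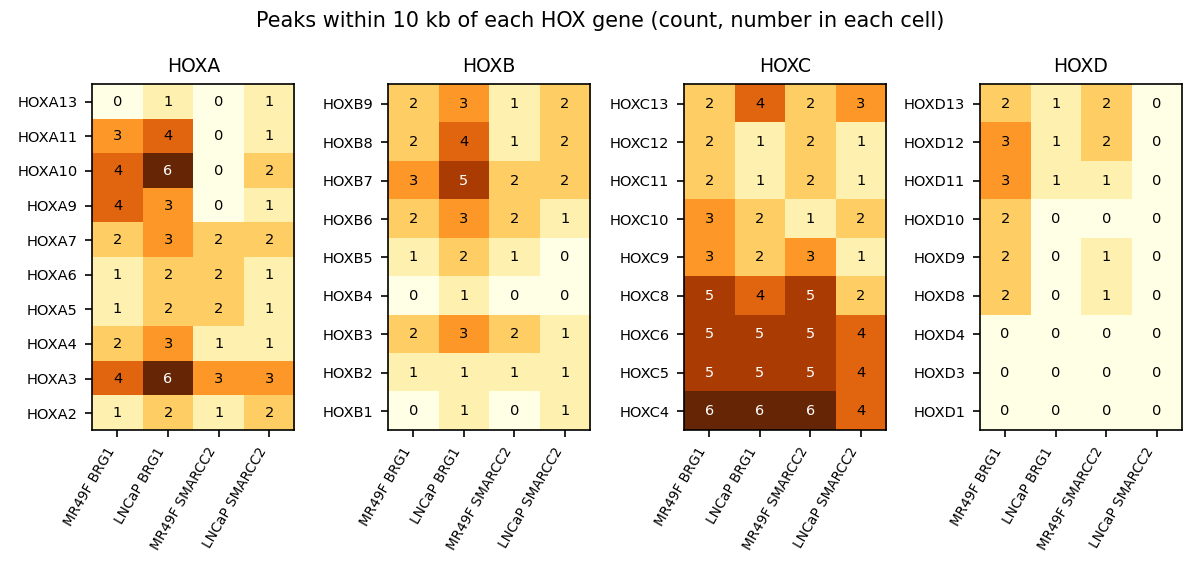
Cells give the number of peaks within 10 kb of each HOX gene in each list, with posterior genes at the top of each panel and darker cells for more peaks. HOXD1, HOXD3 and HOXD4 have 0 in every list, and HOXA9 to HOXA13 have 0 with MR49F SMARCC2.

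Joined across lists, the peaks formed 47 regions, of 65483 in the whole series. Of these, 22 were called in both lines, where 43.5% of all regions were. MR49F alone held 12, where 39.8% of all regions were in MR49F alone, and LNCaP alone held 13, where 16.7% were. Both antibodies marked 4 HOX regions in MR49F alone, where 18.3% of all regions were of this kind, and 4 in LNCaP alone, where 3.67% were. The 4 of MR49F lay in HOXC and HOXD, and the 4 of LNCaP in HOXA and HOXB. With lists of equal length, both antibodies marked 1 region in MR49F alone and 5 in LNCaP alone. All 4 lists called 12 HOX regions, where 22.7% of all regions were in every list, and 17 were in a single list, where 34.5% were.

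At the HOXA cluster (window chr7:27090354-27210091), the MR49F SMARCC2 list had no peak within 10 kb of the posterior genes HOXA9 to HOXA13. MR49F BRG1 peaks lay within 10 kb of HOXA9, HOXA10 and HOXA11, though none lay inside HOXA9 or HOXA11. HOXA3, which in mice patterns the pharyngeal arches and thymus, had the most peaks. It had 4 BRG1 peaks in MR49F against 6 in LNCaP, and 3 SMARCC2 peaks in each line. HOXA7 had 2 BRG1 peaks in MR49F against 3 in LNCaP, and 2 SMARCC2 peaks in each line. HOXA10, needed in mice for the uterus and male genital tract, had the largest LNCaP excess of the cluster. It had 4 BRG1 peaks in MR49F against 6 in LNCaP, and 0 SMARCC2 peaks in MR49F against 2 in LNCaP. Each of the 4 genes HOXA9, HOXA10, HOXA11 and HOXA13 had a LNCaP SMARCC2 peak within 10 kb, where 51.1% of all genes did. In MR49F 0 of the 4 had one, where 71.6% of all genes did. Only 2 LNCaP SMARCC2 peaks lay behind this, and HOXA11 and HOXA13 had the same one, so the genes are not separate observations. The MR49F SMARCC2 list was empty over 59.6 kb, from 27150510 to the end of the window, a stretch that holds the whole of HOXA7 to HOXA13.

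Regions are ordered here by the highest −log10 q-value of a region in any list, which sets values of different lists side by side and serves only to choose which are described. By that order the first HOXA region lay inside HOXA3, at chr7:27120446-27122009, where the 4 summits fell between 27121069 and 27121099. Its −log10 q-value was 24.4 in MR49F BRG1, 14.2 in LNCaP BRG1, 26.1 in MR49F SMARCC2 and 17.7 in LNCaP SMARCC2. It was the highest HOXA value in each list but LNCaP BRG1. A value of one list being above that of another shows no difference in binding, because it depends on each library's depth. A region of all 4 lists in HOTAIRM1, a long non-coding RNA gene at the anterior end of the cluster, lay at chr7:27095489-27096947, with −log10 q-values of 13.5 in MR49F BRG1, 6.13 in LNCaP BRG1, 19.0 in MR49F SMARCC2 and 6.43 in LNCaP SMARCC2. These were the 2 HOXA regions that every list called.

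LNCaP alone had both antibodies at 3 HOXA regions. One was within HOXA11, which in mice shapes the forelimb and uterus, at chr7:27184061-27184899, where BRG1 had a −log10 q-value of 9.68 and SMARCC2 had 14.4 in LNCaP. Another lay inside HOXA3 at chr7:27110319-27111574, with values of 14.3 for BRG1 and 8.3 for SMARCC2. The HOXA3 region had the higher BRG1 value and the HOXA11 region the higher SMARCC2 value. The lowest with both antibodies lay 0.333 kb before the start of HOXA9, a gene of blood progenitors and leukaemia, at chr7:27165778-27166496, with values of 4.57 for BRG1 and 4.59 for SMARCC2. It reaches into the HOXA9 window printed above. No HOXA region had both antibodies in MR49F alone.

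The antibodies parted at several HOXA regions, not only at those of posterior genes. At 4 regions between HOXA7 and the upstream start of HOXA10, BRG1 had a peak in both lines and SMARCC2 in neither. All 4 HOX regions of this kind were in HOXA, and 2.48% of regions of the whole series were of it. BRG1 alone was called in a single line at 2 further HOXA regions in MR49F and 2 in LNCaP, nearest HOXA4, HOXA5 or HOXA7. MR49F SMARCC2 alone was called at 1 HOXA region. The posterior regions at HOXA9 and HOXA11 described above had both antibodies in LNCaP. The region at the HOXA10 start printed above, chr7:27179341-27180552, had a −log10 q-value of 2.47 in MR49F, near the caller's threshold, and 12.0 in LNCaP. SMARCC2 peaks overlapped 2 of 8 MR49F BRG1 peaks at HOXA, or 25% (7.15 to 59.1), where all gene windows gave 79.8%. In LNCaP they overlapped 6 of 12, or 50.0% (25.4 to 74.6), where all gene windows gave 55.7%.

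**Figure D5:**
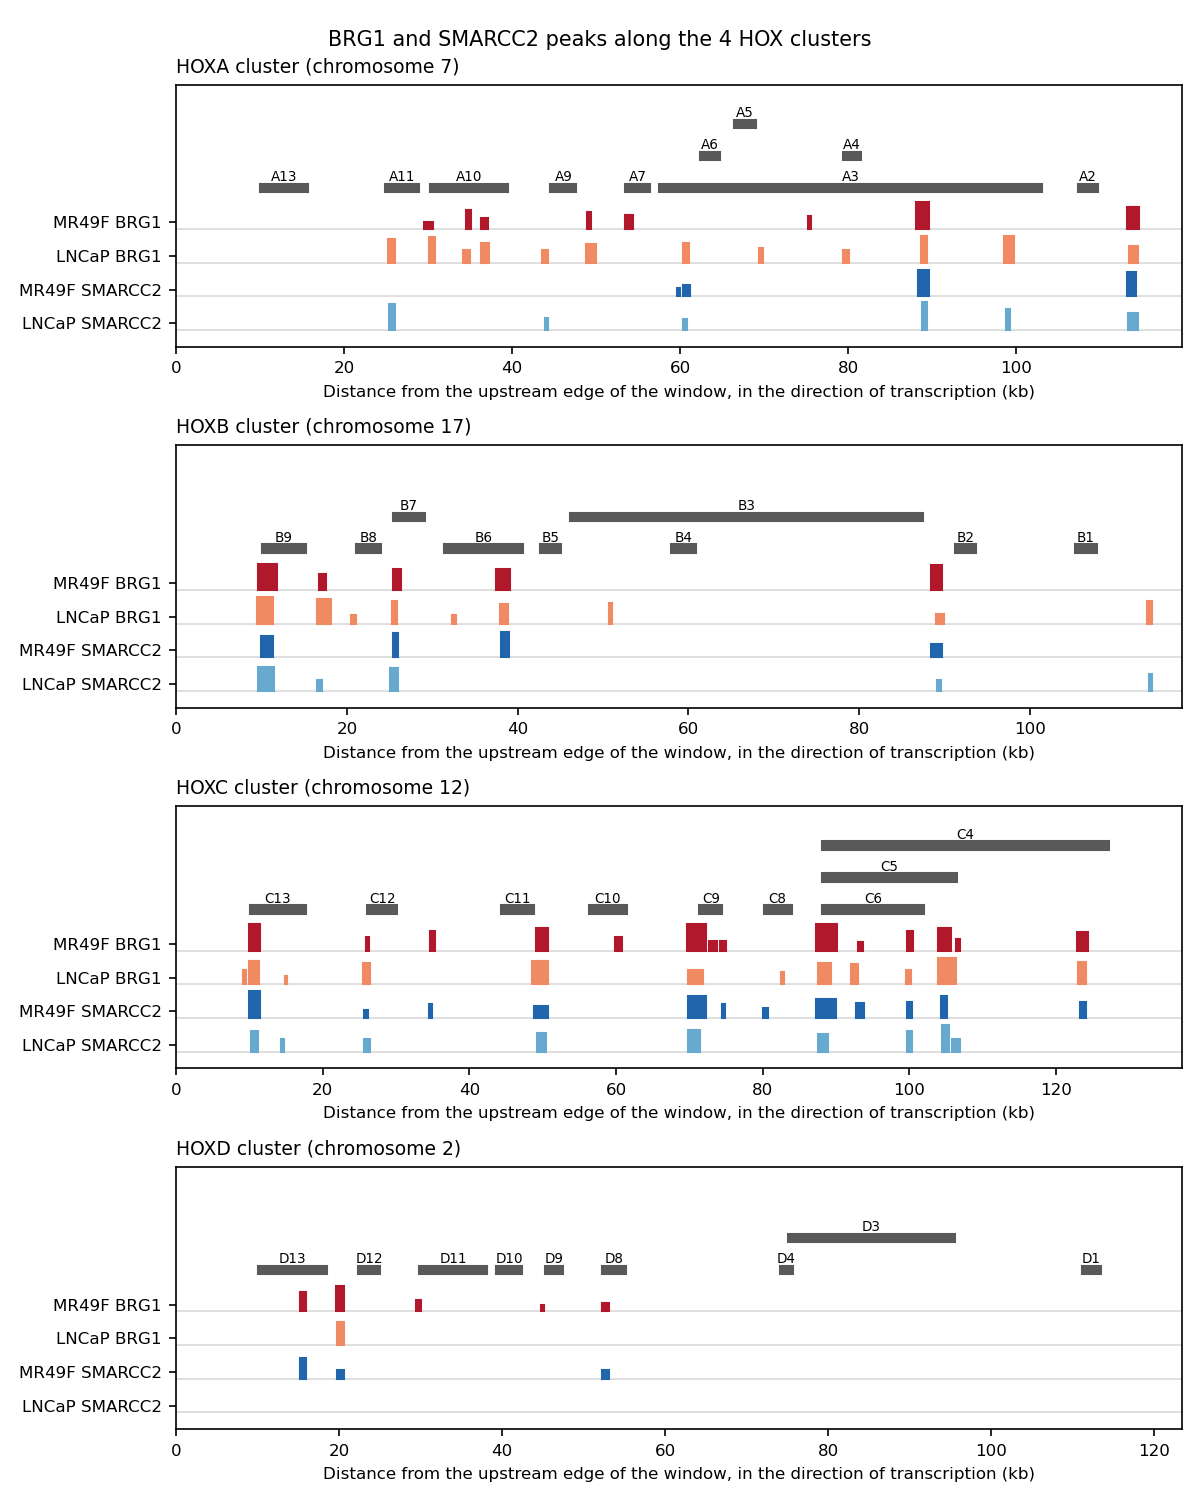
Each panel is a HOX cluster drawn in its direction of transcription, with distance in kb from the upstream edge of the window; grey bars are the listed genes, and coloured blocks are peaks, whose height is the percentile within the list. Posterior genes are on the left, where MR49F SMARCC2 has no block at HOXA9 to HOXA13, and the right side of HOXD is empty in all 4 lists.

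At HOXB (window chr17:48518526-48636358), BRG1 peaks were more numerous in LNCaP at 8 of 9 genes, where 17.5% of all genes showed this, and equal at HOXB2. These genes share the few additional LNCaP peaks of the cluster. HOXB7 had 3 BRG1 peaks in MR49F against 5 in LNCaP, and 2 SMARCC2 peaks in each line. HOXB8 had the largest LNCaP excess of the cluster, with 2 BRG1 peaks in MR49F against 4 in LNCaP, and 1 SMARCC2 peak in MR49F against 2 in LNCaP. HOXB6 had 2 BRG1 peaks in MR49F against 3 in LNCaP, but 2 SMARCC2 peaks in MR49F against 1 in LNCaP. Of 9 HOXB regions, 5 were in both lines, 4 in LNCaP alone and 0 in MR49F alone.

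The HOXB regions with the highest values had peaks in both lines. The region inside HOXB9, a posterior gene, at chr17:48624566-48626863, had −log10 q-values of 19.4 in MR49F BRG1, 12.7 in LNCaP BRG1, 13.5 in MR49F SMARCC2 and 10.8 in LNCaP SMARCC2. A region at chr17:48597234-48598859, within HOXB6 and the antisense gene HOXB-AS3, had values of 11.9 in MR49F BRG1, 7.49 in LNCaP BRG1 and 21.6 in MR49F SMARCC2, and no peak in LNCaP SMARCC2. The region at the start of HOXB7, at chr17:48610042-48611295, was called in all 4 lists, with values of 11.7 in MR49F BRG1, 9.14 in LNCaP BRG1, 18.9 in MR49F SMARCC2 and 10.0 in LNCaP SMARCC2. The region 2.1 kb before HOXB2, at chr17:48546464-48547936, was also in every list. Its values were 18.9 in MR49F BRG1, 3.3 in LNCaP BRG1, 6.32 in MR49F SMARCC2 and 3.9 in LNCaP SMARCC2. The 1 HOXB region of both antibodies in LNCaP alone lay 8.87 kb beyond the HOXB1 start, at chr17:48521994-48522670, where BRG1 had a value of 9.26 and SMARCC2 had 6.12. Over 37.3 kb around HOXB4, known for expanding blood stem cells when overexpressed, from 48547937 to 48585277, no list had a peak.

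HOXC (window chr12:53928831-54066030) was the only cluster in which every gene had a peak in every list. HOXC4, HOXC5 and HOXC6 share an annotated start and much of their span. HOXC4 had 6 BRG1 peaks in MR49F against 6 in LNCaP, and 6 SMARCC2 peaks in MR49F against 4 in LNCaP. HOXC5 and HOXC6 each had 5 BRG1 peaks in MR49F against 5 in LNCaP, and 5 SMARCC2 peaks in MR49F against 4 in LNCaP. HOXC8, which patterns the thoracic skeleton in mice, had the largest MR49F excess of the cluster, with 5 BRG1 peaks in MR49F against 4 in LNCaP, and 5 SMARCC2 peaks in MR49F against 2 in LNCaP. HOXC13, which is needed for hair and nails, went the other way. It had 2 BRG1 peaks in MR49F against 4 in LNCaP, and 2 SMARCC2 peaks in MR49F against 3 in LNCaP.

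The 3 HOXC regions with the highest values in any list, in each case a MR49F list, were in all 4 lists. Each spanned a gene start. In both LNCaP lists the highest HOXC value was instead at the MIR615 region described below. The HOXC13 start, chr12:53938728-53940315, had −log10 q-values of 24.8 in MR49F BRG1, 9.82 in LNCaP BRG1, 29.0 in MR49F SMARCC2 and 7.78 in LNCaP SMARCC2. The region over the HOXC9 start, chr12:53998498-54001091, had values of 24.6 in MR49F BRG1 and 5.12 in LNCaP BRG1. With SMARCC2 it had 15.6 in MR49F and 9.04 in LNCaP. Its summits lay 1.07 kb before that start in MR49F BRG1 and 1.01 kb before it in LNCaP SMARCC2. In LNCaP BRG1 the summit was 0.31 kb before the start, and in MR49F SMARCC2 it was 0.34 kb past it. The shared start of HOXC4, HOXC5 and HOXC6, chr12:54016053-54018995, which contains the window printed above, had values of 23.1 in MR49F BRG1, 8.08 in LNCaP BRG1, 11.6 in MR49F SMARCC2 and 6.43 in LNCaP SMARCC2. Of the 12 HOX regions in every list, 7 were in HOXC, 3 in HOXB, 2 in HOXA and 0 in HOXD.

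MR49F alone had both antibodies at 2 HOXC regions. The stronger lay inside HOTAIR, a long non-coding RNA gene between HOXC12 and HOXC11, at chr12:53963266-53964110, where BRG1 had a −log10 q-value of 10.6 and SMARCC2 had 7.29. The other lay past HOXC9, at chr12:54003002-54003826, with values of 4.06 for BRG1 and 6.89 for SMARCC2.

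HOXC also holds the microRNA gene MIR615, inside HOXC5. Its mature products are printed because its hairpin, chr12:54033950-54034045 on the plus strand, lay inside a MR49F BRG1, a LNCaP BRG1 and a LNCaP SMARCC2 peak, with the MR49F SMARCC2 summit 0.271 kb away. Capitals mark the seed, bases 2 to 8, which pairs with target RNAs.
hsa-miR-615-5p: gGGGGUCCccggugcucggauc
hsa-miR-615-3p: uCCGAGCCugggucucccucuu
The region around it, chr12:54032703-54035802, was the widest in any HOX cluster at 3100 bp, and its strongest peaks had −log10 q-values of 14.0 in MR49F BRG1, 12.5 in LNCaP BRG1, 14.3 in MR49F SMARCC2 and 15.3 in LNCaP SMARCC2. The other microRNA genes of the clusters lay outside peaks in every list. MIR196B, between HOXA10 and HOXA9, was 3.5 kb from a MR49F BRG1 summit, 3.28 kb from a LNCaP BRG1 summit, 19.1 kb from a MR49F SMARCC2 summit and 3.61 kb from a LNCaP SMARCC2 summit. MIR10B, beside HOXD4, was at least 20.1 kb from any summit.

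At HOXD (window chr2:176077487-176200907), nearly all peaks belonged to MR49F, and all lay between HOXD13 and HOXD8. HOXD12 had the most peaks and the largest MR49F excess of the cluster. It had 3 BRG1 peaks in MR49F against 1 in LNCaP, and 2 SMARCC2 peaks in MR49F against 0 in LNCaP. HOXD13, which forms digits and parts of the urogenital tract, had 2 BRG1 peaks in MR49F against 1 in LNCaP, and 2 SMARCC2 peaks in MR49F against 0 in LNCaP. HOXD11, a gene of the forearm and kidney in mice, had 3 BRG1 peaks in MR49F against 1 in LNCaP, and 1 SMARCC2 peak in MR49F against 0 in LNCaP. HOXD4, HOXD3 and HOXD1 had 0 peaks in all 4 lists, and they were the only 3 of the 37 genes with none, where 20.2% of all genes had none. From 176130633 to the end of the window, 70.3 kb, no list had a peak. Absence of a peak only shows that the caller found too little signal, and says nothing on whether the protein was there.

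MR49F alone had both antibodies at 2 HOXD regions. The stronger lay at the HOXD13 start, chr2:176092710-176093460, where BRG1 had a −log10 q-value of 10.6 and SMARCC2 had 13.4. Its upstream edge reaches into the HOXD13 window printed above. The other, just inside HOXD8, chr2:176129722-176130632, was weak, with values of 3.6 for BRG1 and 4.14 for SMARCC2. The HOXD region with the highest BRG1 values lay 2.18 kb before HOXD12, chr2:176097083-176098114, with values of 18.2 in MR49F BRG1, 9.76 in LNCaP BRG1 and 3.72 in MR49F SMARCC2, and it was the only HOXD region with a LNCaP peak. In MR49F SMARCC2 the HOXD13 start had the highest value. MR49F BRG1 alone was called at the HOXD11 start, chr2:176106925-176107571, with a value of 4.75, and before HOXD9, with a value of 2.1. Of the 5 MR49F BRG1 peaks at HOXD, 4 lay within 1 kb of an annotated start.

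Within a line, the smaller SMARCC2 sets were mostly found among BRG1 peaks. BRG1 peaks overlapped 20 of 23 SMARCC2 peaks in MR49F, or 87.0% (67.9 to 95.5), and 19 of 20 in LNCaP, or 95% (76.4 to 99.1). All gene windows gave 78.7% in MR49F and 81.2% in LNCaP. In the other direction, SMARCC2 peaks overlapped 20 of 32 BRG1 peaks in MR49F, or 62.5% (45.3 to 77.1), and 18 of 34 in LNCaP, or 52.9% (36.7 to 68.5). All gene windows gave 79.8% in MR49F, which lies above the HOX interval, and 55.7% in LNCaP, which lies within it.

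The position of HOX peaks relative to gene starts is given without the share over whole lists, which was not computed. Within 1 kb of an annotated start lay 12 of 32 BRG1 peaks in MR49F, or 37.5% (22.9 to 54.7), and 12 of 34 in LNCaP, or 35.3% (21.5 to 52.1). For SMARCC2 it was 10 of 23 in MR49F, or 43.5% (25.6 to 63.2), and 7 of 20 in LNCaP, or 35.0% (18.1 to 56.7). The intervals of the 2 lines overlap with both antibodies.

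Genes that work with HOX proteins were counted in the same way. The 9 HOX cofactor genes, whose PBX, MEIS and PKNOX products bind DNA beside HOX proteins, held 38 BRG1 peaks in MR49F against 26 in LNCaP, and 40 SMARCC2 peaks in MR49F against 20 in LNCaP. More MR49F peaks with both antibodies were found at 3 of 9, where 30.1% of all genes showed this, and more LNCaP peaks at 0, where 3.79% did. PBX3 had 10 BRG1 peaks in MR49F against 3 in LNCaP, and 11 SMARCC2 peaks in MR49F against 5 in LNCaP. MEIS1 had 6 BRG1 peaks in MR49F against 2 in LNCaP, and 6 SMARCC2 peaks in MR49F against 1 in LNCaP. At both genes each MR49F list had more peaks than its LNCaP counterpart. PKNOX2 had 9 BRG1 peaks in MR49F against 10 in LNCaP, and 7 SMARCC2 peaks in MR49F against 3 in LNCaP. Much of the BRG1 excess of the list was at PBX3 and MEIS1, and the median difference between MR49F and LNCaP over its genes was 0 peaks with BRG1 and 1 with SMARCC2.

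The 12 Polycomb and Trithorax genes, which keep HOX genes off or on, held 33 BRG1 peaks in MR49F against 37 in LNCaP, and 35 SMARCC2 peaks in MR49F against 28 in LNCaP. With both antibodies, 3 had more peaks in MR49F, where 30.1% of all genes did, and 2 had more in LNCaP, where 3.79% did. The 3 were CBX2, CBX8 and KMT2A. CBX2, a subunit of Polycomb repressive complex 1, had 5 BRG1 peaks in MR49F against 4 in LNCaP, and 4 SMARCC2 peaks in MR49F against 2 in LNCaP. KMT2A, a Trithorax-group methyltransferase, had 4 BRG1 peaks in MR49F against 3 in LNCaP, and 4 SMARCC2 peaks in MR49F against 1 in LNCaP. ASH1L, also a Trithorax-group methyltransferase, had 3 BRG1 peaks in MR49F against 8 in LNCaP, and 6 SMARCC2 peaks in MR49F against 8 in LNCaP. BMI1, another subunit of Polycomb repressive complex 1, had 2 BRG1 peaks in MR49F against 5 in LNCaP, and 4 SMARCC2 peaks in each line. The 6 ParaHox genes, relatives of the HOX genes outside the clusters, held 7 BRG1 peaks in MR49F against 6 in LNCaP, and 7 SMARCC2 peaks in MR49F against 4 in LNCaP. EVX2, the homeobox gene next to HOXD13, had 1 BRG1 peak in MR49F against 0 in LNCaP, and 2 SMARCC2 peaks in MR49F against 0 in LNCaP. Its margin takes in the HOXD13 region. EVX1, beyond HOXA13, had 1 BRG1 peak in each line, and 0 SMARCC2 peaks in MR49F against 1 in LNCaP.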

How the data were processed

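BRG1 and SMARCC2 ChIP-seq peak lists of MR49F and LNCaP cells were used, 1 library per list; no list pooled replicates. Per the submitters' processing notes, BWA 0.7.10, SAMtools and MACS2 2.1.0 were used with build hg38; the notes give no roles. Read filters and the control were not given in the sources used here. The deposited peaks have a fold over local background, a −log10 p-value and a −log10 q-value from the authors' caller, with the lowest −log10 q-value at 2.0 in each list (q of 0.01), and a deposited display score that was not used. Percentiles were taken within a list; the order of regions used the highest −log10 q-value in any list, only to choose which to describe. The lists give no read totals, so depth is unknown; the commonest local background solved from fold and p-value was 2.62 fragments in MR49F BRG1, 3.22 in LNCaP BRG1, 2.39 in MR49F SMARCC2 and 3.17 in LNCaP SMARCC2. The solution takes fold as summit pileup plus 1 over background plus 1 and p as a Poisson tail. It gave whole pileups for 100% of the peaks it solved in both MR49F lists (relative tolerance 0.0001; solved were 99.96% of BRG1 and 99.76% of SMARCC2 peaks), and scaled ones in LNCaP.

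Gene spans, promoters and microRNAs came from RefSeq GRCh38.p14 tables. The strand was in the promoter table for 20 genes, and the other genes were given the strand of their cluster. Peaks sharing at least 1 bp were joined into regions. Named genes were, per cluster, the 3 with the most peaks, those with 0 peaks, and the largest excess in each line; named regions were, by that order, the first 3 per cluster and the first of each single-line class. Other regions and genes were named after their values were seen. The members and all gene lists were chosen with earlier results of these data known. With 1 library per group no test was possible; shares have Wilson 95% intervals (Python 3.11.15, NumPy 2.4.6, pandas 2.3.3, SciPy 1.17.1; plots with matplotlib 3.10.9). The counting steps and the background solution were tested on simulated data. Alternatives were gene margins of 0 and 25 kb, a −log10 q-value of at least 5, the 10000 strongest peaks, peak overlap in place of the summit, and stricter region joining (reciprocal overlap of 50% or summits within 200 bp). Cutting the lists of an antibody to equal length was added after seeing the data. The input libraries were not analysed here.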

Additional observations from a re-analysis of the deposited data

Results flagged for a closer look

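At 7 HOX genes the antibodies moved in opposite directions between the lines, by 1 peak each. The difference between antibodies was not tested, and neighbouring genes share the peaks behind it. At HOXA5, HOXA6, HOXB3, HOXB5 and HOXB6, MR49F minus LNCaP was -1 for BRG1 and 1 for SMARCC2. HOXB5, for example, had 1 BRG1 peak in MR49F against 2 in LNCaP, and 1 SMARCC2 peak in MR49F against 0 in LNCaP. At HOXA9 and HOXC10, MR49F minus LNCaP was 1 for BRG1 and -1 for SMARCC2. HOXA9 had 4 BRG1 peaks in MR49F against 3 in LNCaP, and 0 SMARCC2 peaks in MR49F against 1 in LNCaP.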

How the results depend on the processing

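Of the comparisons between lines and antibodies, 63 values under alternatives stayed on their side of an even split or near the reported value, 20 moved and 7 crossed over; of the peak counts per list and cluster, 54 stayed and 26 moved. The HOXA shares of both antibodies and the HOXB share of BRG1 stayed at or under 50% in every alternative run. The SMARCC2 share at HOXB was 60% with summits inside gene spans, 57.1% at a −log10 q-value of at least 5, and 0.0% (of 2 peaks) among the 10000 strongest peaks. The HOXC share among the 10000 strongest was 75.0% for BRG1 (of 4 peaks) and 33.3% for SMARCC2 (of 3), and with lists of equal length it was 47.8% for BRG1 and 30.8% for SMARCC2. The SMARCC2 share over all clusters was 25% among the 10000 strongest and 33.3% at equal length. The BRG1 share at HOXD was 100% inside gene spans (of 3 peaks). It was 66.7% at a −log10 q-value of at least 5 (of 3) and 75.0% at equal length (of 4). The SMARCC2 share at HOXD stayed at 100%, but of 1 peak at the stricter q-value and of 1 peak at equal length. HOXD had no peak among the 10000 strongest, so no share. Regions of both antibodies in MR49F alone, 4 as reported, numbered 2 inside gene spans, 1 among the strongest and 1 at equal length. Those in LNCaP alone, also 4 as reported, numbered 2 inside gene spans, 1 among the strongest and 5 at equal length. The share of regions with both antibodies was 58.8% in MR49F and 51.4% in LNCaP; with summits within 200 bp it was 37.5% in MR49F and 35.0% in LNCaP, and with reciprocal overlap 35.0% in LNCaP. Genes with more MR49F peaks with both antibodies numbered 4 inside gene spans, 15 with 25 kb margins, 5 with the stricter q-value, 1 among the strongest and 2 at equal length. Genes with more LNCaP peaks numbered 2 inside gene spans, 5 with the stricter q-value, 5 among the strongest and 15 at equal length. Fewer peaks enter the stricter and narrower settings; beyond that, the cause was not tested.

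No paired analysis was possible because each group has 1 library and the groups share only the replicate number 1. With at most 14 peaks per cluster and list, a difference of a few peaks is within counting error. The MR49F lists are the longer ones for both antibodies, and the lines differ in local background, so a peak missing from a list may have been just under its threshold.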

Other observations

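Peaks in the flanks of 100 kb on each side of the clusters were counted in the same way. Beside HOXA, BRG1 had 4 peaks in MR49F and 3 in LNCaP, and SMARCC2 had 5 in MR49F against 2 in LNCaP, where the cluster itself held more peaks in LNCaP. Beside HOXB, BRG1 had 5 peaks in MR49F and 8 in LNCaP, and SMARCC2 had 5 in each line. Flanks were set from the listed genes only. HOXB13 is not among the listed genes, so the HOXB flanks are not known to be free of cluster genes. Beside HOXC, BRG1 had 2 peaks in MR49F and 4 in LNCaP, and SMARCC2 had 3 in MR49F against 2 in LNCaP. Beside HOXD, BRG1 had 2 peaks in each line, and SMARCC2 had 3 in MR49F and 1 in LNCaP. The flanks hold few peaks, and the difference between flanks and clusters was not tested.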
